A study of Mus musculus with 9 samples.

Results

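The nuclear genes of respiratory complex I were followed across 9 skeletal muscles of the mouse. Members were all genes whose symbol in the array annotation begins with Nduf, 1 of the letters a, b, c, s or v, and a number, on probe sets that name a single gene, with the brightest probe set kept for each gene. The rule gave 33 genes of 22180 measured in all, on 36 probe sets, and it used no measured difference between muscles. Another 6 probe sets name such a gene together with another gene and are given only as side values. Among the symbols of this form in the RefSeq gene table, Ndufb1, Ndufb2, Ndufb4, Ndufb4b, Ndufb4c and Ndufs6 have no single-gene probe set in the tables used here.

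The arrays were hybridised with RNA of frozen muscle tissue from male C57BL/6J mice 12 weeks old, 1 array for each muscle, with no treatment and no engineered allele named. The masseter and the digastric stand for the head (n = 2), the trapezius, supraspinatus and triceps for the shoulder and forelimb (n = 3), and 4 muscles for the hindlimb, namely soleus, gastrocnemius, tibialis anterior and rectus femoris (n = 4). The labels give the muscle, and the regions were assigned from anatomy. The sources do not say how many animals an array stands for, so differences between muscles, animals and arrays cannot be told apart. An SD below is a spread between different muscles, not between animals of 1 muscle, and p-values measure that spread.

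Complex I is the entry point for electrons from NADH into the respiratory chain of mitochondria. It has a matrix arm, where NADH is oxidised and electrons pass along iron-sulphur clusters to ubiquinone, and a membrane arm, which pumps protons. A core of subunits shared with bacteria does the chemistry, part of it encoded in mitochondrial DNA, and many accessory subunits surround it. Oxidative muscle fibres hold more mitochondria than glycolytic fibres.

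Values are deposited log2 levels, where a step of 1 is a doubling, and levels of different genes are not compared, since probe sets differ in brightness. Of the 33 genes, 32 had a mean above the median gene (3.88). Ndufs5, at a mean of 3.58, did not. In 3 arrays, triceps, rectus femoris and gastrocnemius, the SD of the values over all probe sets was 1.92 to 1.96, against 2.03 to 2.08 in the other 6 arrays, which are called the arrays of wider range below. The 7 genes of the muscle fibre had a mean level of 11.33 to 12.05 on every array. Acta1 and Ckm lay at 12.12 to 12.94, while Mb ran from 9.46 in rectus femoris to 11.7 in soleus. Slow fibre genes had a mean level of 9.86 in soleus against 4.45 to 6.86 elsewhere. Soleus is known as a slow muscle.

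Most members followed 1 pattern over the 9 arrays. Each gene was first set against its own mean over the arrays. The median of the 33 genes was then highest in digastric (0.43) and masseter (0.32). It lay at 0.19 in soleus, 0.15 in supraspinatus, and 0.06 in both tibialis anterior and trapezius. It was lowest in triceps (-0.16), rectus femoris (-0.50) and gastrocnemius (-0.53), the 3 arrays of narrower range. The head arrays were thus at the top and the arrays of narrower range at the bottom. In both masseter and digastric 32 of 33 genes lay above their own mean, and in gastrocnemius 0 did.

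**Figure D1:**
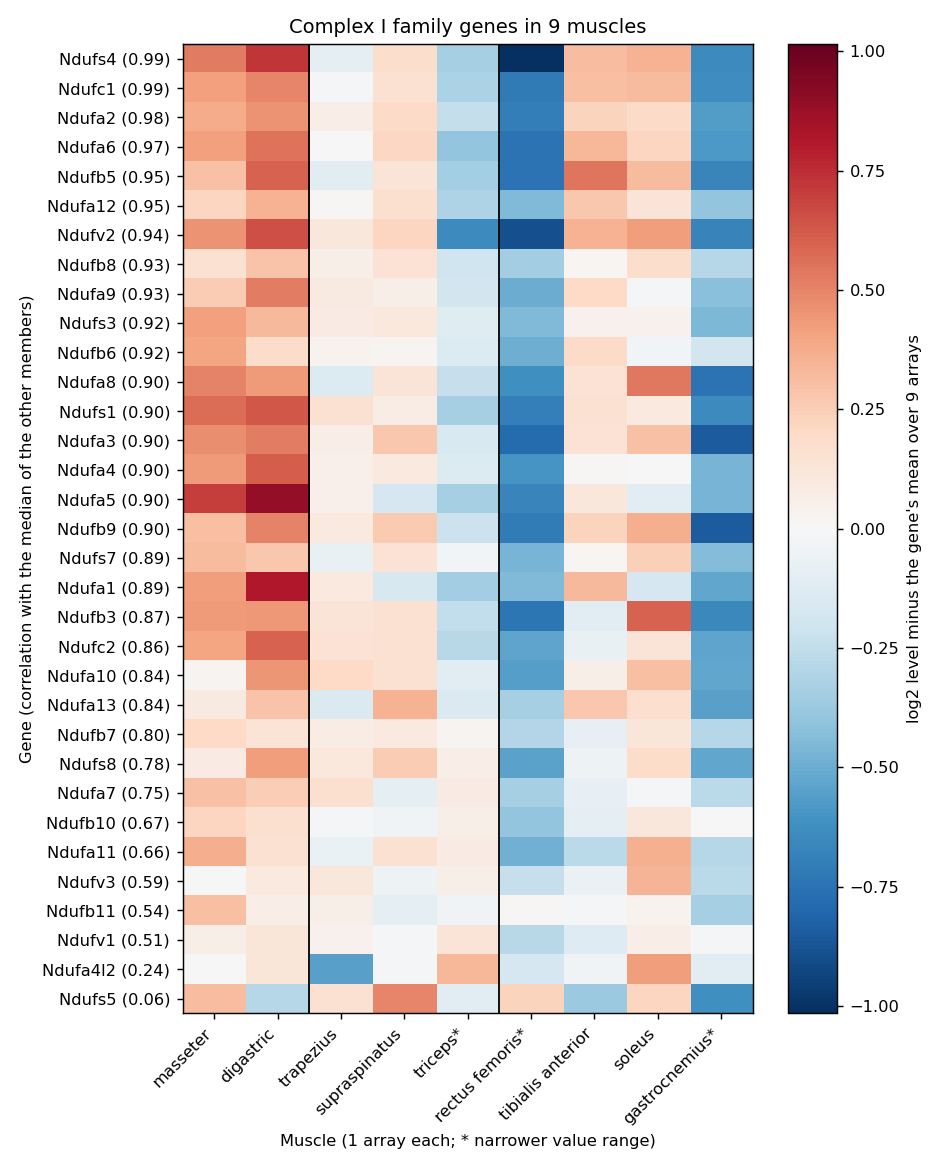
Each row is 1 of the 33 genes and each column 1 array, with the colour giving the log2 level minus the gene's own mean over the 9 arrays. The number beside a gene is its correlation with the median of the other members' levels as deposited. Black lines part head, shoulder and forelimb, and hindlimb muscles. Most rows are red in masseter and digastric and blue in rectus femoris and gastrocnemius, and the rows at the bottom, down to Ndufa4l2 and Ndufs5, do not share that course.

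The correlation of a gene with the median of the other members was taken over levels as deposited, not set against each gene's own mean. Over the 9 arrays it was above 0.8 for 24 of 33 genes. Its median was 0.90 over the 31 genes at or above 0.5. Just above that limit stood Ndufv1 (0.51), Ndufb11 (0.54) and Ndufv3 (0.59), and under it Ndufa4l2 (0.24) and Ndufs5 (0.06). These correlations describe arrays that share their processing, and they carry no test. Ndufs4, an accessory subunit of the matrix arm, had the highest correlation (0.99), followed by Ndufc1 (0.99), Ndufa2 (0.98), Ndufa6 (0.97) and Ndufb5 (0.95). The order depended on the measure. With each gene set against its own mean first, Ndufa3 was highest (0.99), then Ndufa2 (0.98). Ndufc1 and Ndufs4 were then at 0.97, Ndufa6 at 0.96, Ndufb5 at 0.92, Ndufs5 at 0.28 and Ndufa4l2 at 0.22. The 5 genes outside the family closest to the pattern, out of 3697 genes of sufficient level and range, were also mostly mitochondrial. They were the ATP synthase gene Atp5l (r = 0.99) and Slc25a11, which carries oxoglutarate, Pdhb of pyruvate dehydrogenase, Rala and Uqcrc2 of complex III, each at 0.98. Over just the 6 arrays of wider range, Ndufs4 had a correlation of 0.94, while 11 of 33 genes fell under 0.5. The common course therefore rested in part on the 3 arrays of narrower range.

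The size of the swing differed between members. The range over the 9 arrays ran from 0.41 to 1.74, with a median of 1.03, and the median range over the 6 arrays of wider range was 0.50. For 21 of 33 genes each of the 3 arrays of narrower range lay below each of the others, a layout found for 11.8% of all genes. The 12 genes without it were Ndufa7, Ndufa11, Ndufa13, Ndufb7, Ndufb10, Ndufb11, Ndufs7, Ndufs8, Ndufv1 and Ndufv3, beside Ndufa4l2 and Ndufs5. The median difference of the narrower from the wider arrays was -0.58 for the 33 genes, 0.07 over all genes and -0.10 over the 11090 genes above the median level. Whether the split between arrays is technical was not tested.

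Promoters of 4 members are shown because these genes mark the ends of the pattern. Ndufs4 and Ndufa6 follow the common course closely, Ndufv1 has the smallest range, and Ndufs5 the lowest correlation on levels as deposited. Each is the 250 bases before the RefSeq start in GRCm38.p6, written 5′ to 3′ on the strand of the gene, with capitals where 1 of the searched motifs matched on either strand.
Ndufs4, chr13:114388095-114388344, minus strand: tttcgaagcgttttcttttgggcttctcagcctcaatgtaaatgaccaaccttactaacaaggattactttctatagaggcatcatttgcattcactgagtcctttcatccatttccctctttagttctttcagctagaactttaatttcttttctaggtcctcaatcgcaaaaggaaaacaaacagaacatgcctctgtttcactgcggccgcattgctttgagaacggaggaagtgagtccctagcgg
Ndufa6, chr15:82354292-82354541, minus strand: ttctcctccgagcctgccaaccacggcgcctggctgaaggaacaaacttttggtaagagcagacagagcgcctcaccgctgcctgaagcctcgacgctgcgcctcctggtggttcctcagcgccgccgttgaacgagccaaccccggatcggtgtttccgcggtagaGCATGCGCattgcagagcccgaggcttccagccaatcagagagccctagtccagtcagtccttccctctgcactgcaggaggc
Ndufv1, chr19:4012756-4013005, minus strand: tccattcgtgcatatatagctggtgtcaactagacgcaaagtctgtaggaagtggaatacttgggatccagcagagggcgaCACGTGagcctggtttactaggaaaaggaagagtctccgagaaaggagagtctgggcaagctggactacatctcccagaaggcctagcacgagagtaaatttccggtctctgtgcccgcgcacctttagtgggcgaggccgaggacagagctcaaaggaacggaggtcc
Ndufs5, chr4:123718187-123718436, minus strand: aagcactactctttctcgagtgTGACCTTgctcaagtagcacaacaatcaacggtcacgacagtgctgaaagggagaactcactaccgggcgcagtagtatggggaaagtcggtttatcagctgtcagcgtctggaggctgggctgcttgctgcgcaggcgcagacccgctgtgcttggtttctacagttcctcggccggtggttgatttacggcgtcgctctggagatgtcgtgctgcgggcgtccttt

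The motifs searched were AAGGTCA, a site of oestrogen-related receptors, GCGCATGC, a core of the NRF1 site, CCGGAAG, bound by GABP, and ACGTG, the core of the hypoxia response element. The window ran from 250 bases before to 50 after the start, and the table held 31 promoters of 29 members, with 2 starts each for Ndufa5 and Ndufa7. GCGCATGC stood in 3 of the 31 member promoters (9.68%), those of Ndufa6, Ndufa8 and Ndufa11, and in 2.71% of all 32851 promoters. CCGGAAG stood in 4 (12.9%), those of Ndufb6, Ndufb7, Ndufs3 and Ndufs8, and in 8.86% of all. ACGTG stood in 7 (22.6%) against 19.6% of all. The 7 belong to 6 of the 29 members, Ndufa1, Ndufa3, Ndufa7, Ndufb10, Ndufv1 and Ndufv3, since both starts of Ndufa7 are counted. The capitals in Ndufv1 are 2 such matches that overlap on opposite strands. AAGGTCA stood in 1 (3.23%), Ndufs5, against 4.72% of all. The Ndufs4 window held 0 matches, and a match or its absence says only which letters lie in these windows.

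The core subunits of the matrix arm carry the flavin, the iron-sulphur clusters or the ubiquinone site, and 6 were measured. Ndufs1, the large subunit with several iron-sulphur clusters, was at 8.96 in masseter and 9.03 in digastric. It was at 8.55 in trapezius, 8.47 in supraspinatus and 8.06 in triceps, and in the hindlimb at 7.71 in rectus femoris, 8.55 in tibialis anterior, 8.50 in soleus and 7.75 in gastrocnemius. Both head arrays lay above the other 7, whose values overlapped between the regions.
Ndufv2, which holds an iron-sulphur cluster near the flavin, had a range of 1.55, exceeded in the family by Ndufs4 and Ndufa5. Its levels were 9.70 in masseter, 9.89 in digastric, 9.35 in trapezius, 9.45 in supraspinatus, 8.59 in triceps, 8.34 in rectus femoris, 9.59 in tibialis anterior, 9.66 in soleus and 8.56 in gastrocnemius. The arrays of narrower range lay below those of wider range by a mean difference of -1.11, and the hindlimb below the head by -0.75.

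Ndufv1, the subunit that binds NADH and the flavin, moved least of all members, with a range of 0.41. It was at 9.26 in masseter, 9.32 in digastric, 9.24 in trapezius, 9.19 in supraspinatus, 9.33 in triceps, 8.92 in rectus femoris, 9.07 in tibialis anterior, 9.27 in soleus and 9.19 in gastrocnemius. Its highest value came from triceps, an array where most members were low, and its correlation with the others was 0.51. Ndufv1 and Ndufv2 are partners in the same module, yet their differences of narrower from wider arrays were -0.08 and -1.11. Ndufs8, a subunit with iron-sulphur clusters, was at 9.85 in masseter, 10.19 in digastric, 9.88 in trapezius, 10.03 in supraspinatus, 9.83 in triceps, 9.22 in rectus femoris, 9.72 in tibialis anterior, 9.95 in soleus and 9.24 in gastrocnemius. Rectus femoris and gastrocnemius were lowest and apart from the other 7 arrays, which overlapped between the regions. Ndufs7 and Ndufs3, next to the ubiquinone site, had ranges of 0.79 and 0.87, with both head arrays above all others.

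Accessory subunits of the matrix arm held the genes with the widest swings. Ndufs4, which is needed for a stable NADH-oxidising module, had the largest range of the family (1.74). Its levels were 8.46 in masseter, 8.66 in digastric, 7.83 in trapezius, 8.11 in supraspinatus, 7.60 in triceps, 6.92 in rectus femoris, 8.24 in tibialis anterior, 8.28 in soleus and 7.29 in gastrocnemius. Tibialis anterior and soleus came close to the head arrays, while rectus femoris and gastrocnemius lay more than 1 below both head arrays.
Ndufa5, another accessory subunit of this arm, was at 7.47 in masseter and 7.66 in digastric, at 6.82 in trapezius, 6.60 in supraspinatus and 6.43 in triceps, and at 6.10 in rectus femoris, 6.88 in tibialis anterior, 6.65 in soleus and 6.30 in gastrocnemius. The head arrays were parted from all others by a gap of more than 0.5, also from the arrays of wider range. Ndufv3, a small subunit at the tip of the arm, was highest in soleus (6.59) and between 5.97 and 6.36 elsewhere. The probe sets shared by Ndufs6 and its copy Ndufs6b had the widest ranges of any probe set of the family, 2.08 and 2.19.

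Among accessory subunits of the proximal membrane arm, Ndufa1 was at 7.58 in masseter, 7.96 in digastric, 7.24 in trapezius, 6.98 in supraspinatus, 6.79 in triceps, 6.70 in rectus femoris, 7.47 in tibialis anterior, 6.98 in soleus and 6.62 in gastrocnemius. Soleus, high for many members, was the 6th of the 9 arrays for Ndufa1. Ndufa3 was at 10.24 in masseter, 10.29 in digastric, 9.84 in trapezius, 10.04 in supraspinatus, 9.61 in triceps, 8.99 in rectus femoris, 9.91 in tibialis anterior, 10.06 in soleus and 8.92 in gastrocnemius. Its head values stood above the rest, and the values of rectus femoris and gastrocnemius far below.
Ndufa8 had its highest value in soleus (10.55), just above masseter (10.51) and digastric (10.44). Ndufc2, Ndufc1 and Ndufa10 had their highest values in digastric, and Ndufa13 in supraspinatus.

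The distal membrane arm is built from Ndufb subunits, of which 8 were measured, with ranges from 0.50 to 1.35. Ndufb9 was at 11.99 in masseter, 12.19 in digastric, 11.78 in trapezius, 11.94 in supraspinatus, 11.46 in triceps, 10.97 in rectus femoris, 11.90 in tibialis anterior, 12.05 in soleus and 10.84 in gastrocnemius. Ndufb7 ran from 7.22 in rectus femoris to 7.72 in masseter, with 7.66 in digastric, 7.59 in trapezius, 7.61 in supraspinatus, 7.55 in triceps, 7.43 in tibialis anterior, 7.64 in soleus and 7.23 in gastrocnemius. Ndufb10 was at 8.06 in masseter, 8.0 in digastric, 7.82 in trapezius, 7.80 in supraspinatus, 7.90 in triceps, 7.44 in rectus femoris, 7.74 in tibialis anterior, 7.95 in soleus and 7.84 in gastrocnemius. Ndufb7 and Ndufb10 thus had ranges of 0.50 and 0.62, while Ndufb9 and Ndufb5 reached 1.35 and 1.34. Ndufb3 was highest in soleus (6.61), above digastric (6.45) and masseter (6.44).

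Both genes of the Ndufa4 pair belong to the family by name. Ndufa4 was long listed under complex I and is now counted with cytochrome c oxidase, complex IV, and Ndufa4l2 is a relative of it that is known to be induced in low oxygen and to be expressed in pericytes. Ndufa4 was at 10.73 in masseter, 10.91 in digastric, 10.35 in trapezius, 10.40 in supraspinatus, 10.16 in triceps, 9.70 in rectus femoris, 10.31 in tibialis anterior, 10.29 in soleus and 9.83 in gastrocnemius. It followed the common course (correlation 0.90), with both head arrays above all others.
Ndufa4l2 was at 5.67 in masseter, 5.79 in digastric, 5.12 in trapezius, 5.65 in supraspinatus, 6.01 in triceps, 5.50 in rectus femoris, 5.64 in tibialis anterior, 6.10 in soleus and 5.56 in gastrocnemius. Soleus and triceps were highest and trapezius lowest, and the regions overlapped. Its correlation with the median of the other members was 0.24, and with Ndufa4 it was 0.17.

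The balance between the pair was taken as the log2 difference of Ndufa4l2 from Ndufa4 on each array, relative to its mean over the 9 arrays. It was -0.44 in masseter, -0.49 in digastric, -0.60 in trapezius, -0.12 in supraspinatus, 0.48 in triceps, 0.42 in rectus femoris, -0.05 in tibialis anterior, 0.43 in soleus and 0.37 in gastrocnemius. The balance was thus toward Ndufa4l2 in soleus and the 3 arrays of narrower range and toward Ndufa4 in trapezius and both head muscles. The genes whose course was most like that of Ndufa4l2 over the 9 arrays were Adcy4, an adenylate cyclase gene (r = 0.93), Plekhg2 (0.90), Pdgfrl (0.84), Uchl1 (0.83) and Sema7a (0.83), each highest in soleus. Of 12 markers of pericytes and smooth muscle the mean level was 6.56 in soleus and 5.97 to 6.32 elsewhere, and of 9 genes known to rise in low oxygen it was 6.64 in soleus and 5.82 to 6.49 elsewhere. In triceps, where Ndufa4l2 was nearly as high (6.01) as in soleus (6.10), these means were low. They were 5.97 for the pericyte and smooth muscle markers, the lowest of the 9 arrays, and 5.93 for the low-oxygen genes. The part of either list in the level of Ndufa4l2 was not tested.

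Ndufs5, a small accessory subunit on the side of the intermembrane space, was the other gene that left the common course, with a correlation of 0.06. It was at 3.89 in masseter, 3.28 in digastric, 3.73 in trapezius, 4.07 in supraspinatus, 3.46 in triceps, 3.80 in rectus femoris, 3.20 in tibialis anterior, 3.79 in soleus and 2.95 in gastrocnemius. These levels lie close to the median probe set of the arrays (3.34 to 3.44), where a signal cannot be told from background. A second probe set, which names Ndufs5 together with Ndufs5-ps, was bright and gave another course. It was at 8.27 in masseter, 8.09 in digastric, 7.95 in trapezius, 7.68 in supraspinatus, 8.18 in triceps, 7.55 in rectus femoris, 7.57 in tibialis anterior, 7.74 in soleus and 7.45 in gastrocnemius. The value of 0.06 is from levels as deposited. With each gene set against its own mean, the member median correlated at 0.61 with the shared probe set and at 0.31 with the single-gene one. The shared and the single-gene probe set correlated with each other at 0.25. The departure of Ndufs5 thus rests on 1 dim probe set. The genes closest in course to that probe set were Neat1 (r = 0.87), Erg28 (0.86), Npas2 (0.80), Apex2 (0.77) and Med17 (0.76).

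**Figure D2:**
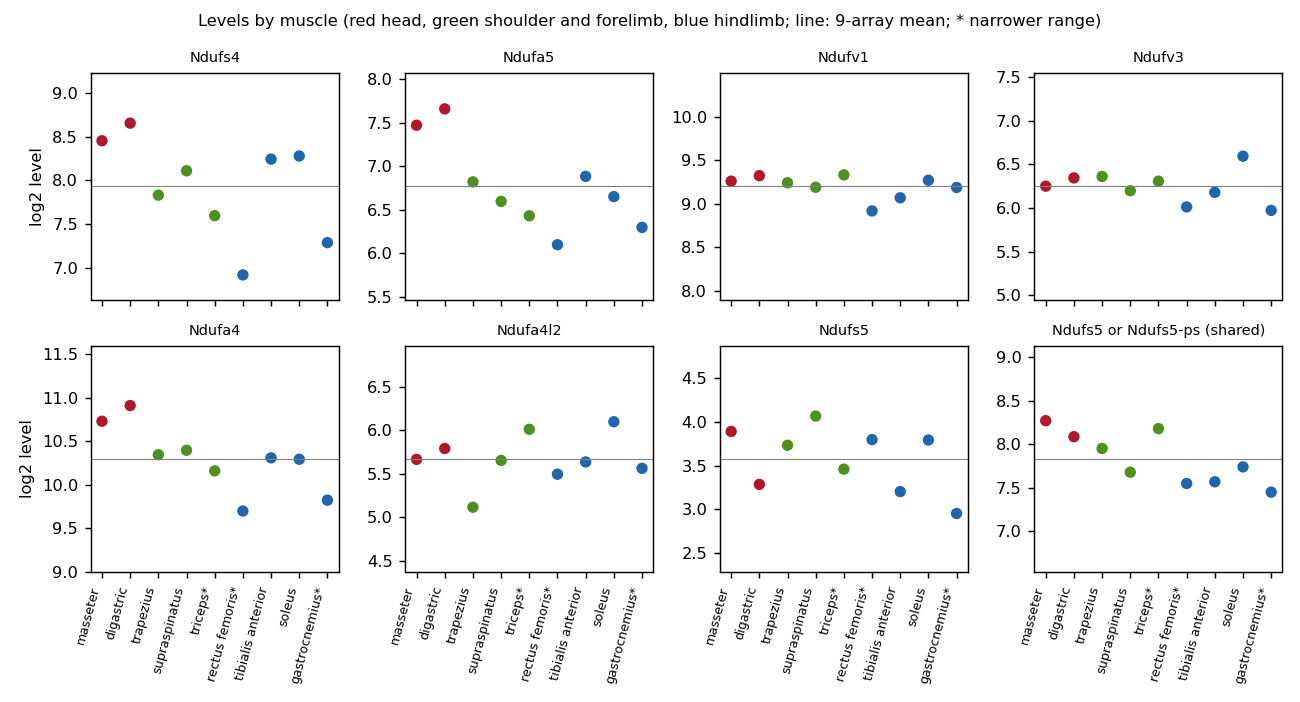
Each panel gives the log2 level of 1 probe set on the 9 arrays, with a vertical axis of the same length in all panels, the mean as a grey line, and red, green and blue points for head, shoulder and forelimb, and hindlimb muscles. Ndufs4 and Ndufa5 swing widely, Ndufv1 stays within 0.41, Ndufa4l2 is highest in soleus and triceps, and both probe sets for Ndufs5 take different courses.

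The first comparison by region was hindlimb against head. All 33 limma estimates were negative, with a median of -0.57 and values from -1.08 to -0.03. The median was 0.04 over all genes and -0.08 over the 11090 genes above the median level. No member passed the limma test at an adjusted p of 0.05, where 0.00902% of all genes passed. At an unadjusted p under 0.05, 11 of 33 were lower in hindlimb muscles (33.3%), against 6.49% of all genes. Of the 11090 genes above the median level, where 32 of the 33 members lie, 1205 were lower at that p. Each hindlimb array lay below each head array for 18 of 33 members (54.5%), against 9.78% of all genes. The count of 11 ran from 3 without digastric to 23 without soleus when 1 array was left out. It was also 6 without masseter, 7 without rectus femoris or gastrocnemius, 19 without tibialis anterior, and 4 in the 6 arrays of wider range. In those 6 arrays the median difference was -0.18, with 30 of 33 negative, and after quantile normalization of all 9 arrays 31 of 33 were negative.

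Ndufa5 was the member furthest apart. Hindlimb muscles had a mean of 6.48 ± 0.35 (SD, n = 4) and head muscles of 7.56 ± 0.13 (SD, n = 2), which is 2.12-fold. The limma estimate was -1.08 (SE 0.23, 95% interval -1.59 to -0.58, adjusted p = 0.274). Over 18 alternative settings the difference ran from -1.22 to -0.80 and the adjusted p from 0.114 to 0.828, with -0.80 from the arrays of wider range alone. Ndufs4 differed by -0.87 (SE 0.36), Ndufs1 by -0.87 (SE 0.27), Ndufa1 by -0.82 (SE 0.25), Ndufa3 by -0.79 (SE 0.32) and Ndufa4 by -0.79 (SE 0.21), with adjusted p from 0.36 to 0.401 in limma. Within the arrays of wider range these differences were -0.29 for Ndufs4, -0.47 for Ndufs1, -0.54 for Ndufa1, -0.28 for Ndufa3 and -0.52 for Ndufa4. Ndufa1, Ndufa4, Ndufa5, Ndufc2 (-0.48) and Ndufs1 thus kept more of their difference there than Ndufs4 or Ndufv2 (-0.16). At the other end, Ndufv3 differed by -0.11, Ndufs5 by -0.15 and Ndufv1 by -0.18. The value of Ndufs5 is from its dim probe set, and the bright probe set shared with Ndufs5-ps differed by -0.60. Ndufa4l2 was at 5.70 ± 0.27 (SD, n = 4) in hindlimb and 5.73 ± 0.09 (SD, n = 2) in head muscles, a difference of -0.03 with a 95% interval from -0.59 to 0.53.

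**Figure D3:**
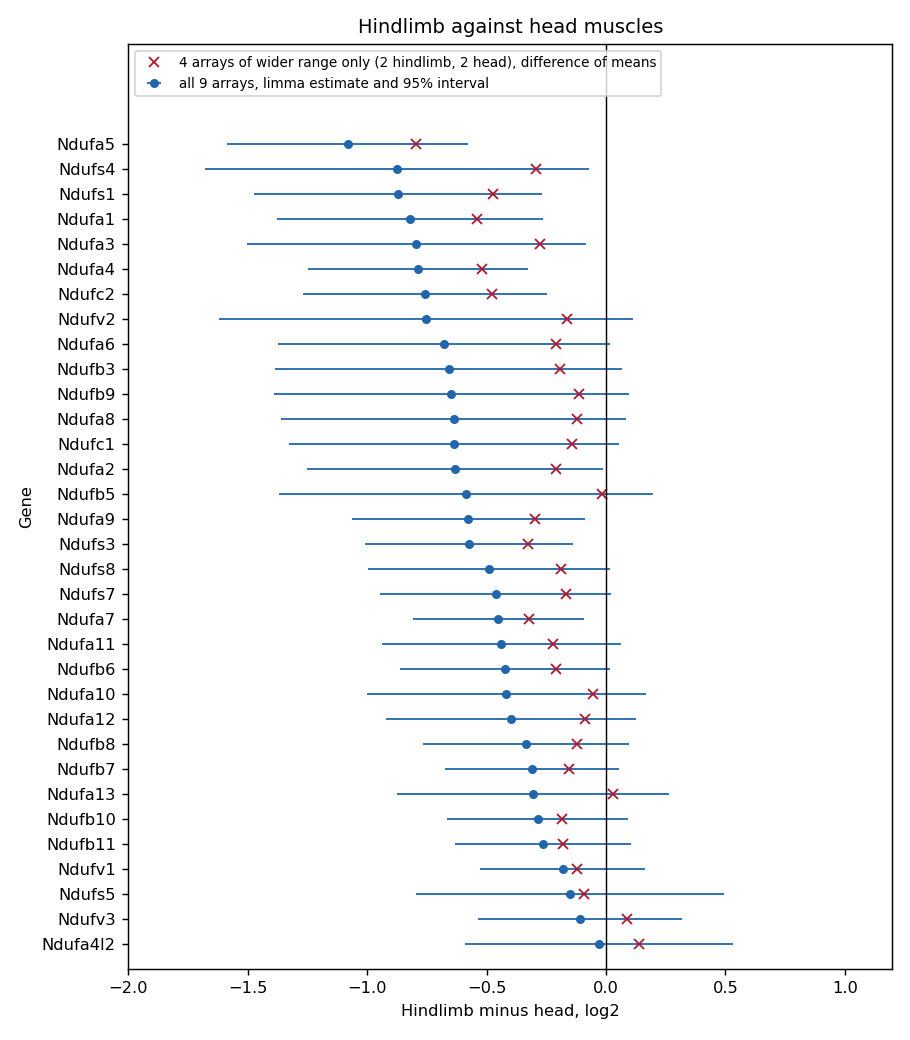
Points give the limma estimate of hindlimb minus head in log2 units for each gene with its 95% interval, and crosses the difference of means over 2 hindlimb and 2 head arrays of wider range. All 33 points lie left of 0, and the crosses lie closer to 0 than the points for all genes except Ndufa4l2, whose cross is at 0.14.

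By role, the median difference was -0.53 for the 6 measured core subunits, -0.60 for 8 accessory subunits of the matrix arm and -0.64 for 9 of the proximal membrane arm. It was -0.38 for 8 of the distal membrane arm, where 0 of 8 had an unadjusted p under 0.05, against 5 of 8 in the matrix arm. Differences between roles were not tested.

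Shoulder and forelimb against head asked whether the head muscles stood apart from other limb muscles too, and it shares the head arrays with the first comparison. Of 33 differences 32 were negative, with a median of -0.35. It was 0.04 over all genes and -0.02 over the 11090 genes above the median level. No member passed at an adjusted p of 0.05 in limma, where 0% of all genes passed, and 3 had an unadjusted p under 0.05, Ndufa5, Ndufa1 and Ndufa4 (9.09%, against 3.75% of all genes). Of the 11090 genes above the median level, 622 were lower at that unadjusted p. With 1 array left out the count of 3 members ran from 1, without digastric or triceps, to 5, without rectus femoris or soleus. It was 12 with the arrays of these 2 regions alone. Each shoulder and forelimb array lay below each head array for 26 of 33 members (78.8%), against 14.7% of all genes. Ndufa5 was at 6.62 ± 0.20 (SD, n = 3) and differed by -0.95 (SE 0.24, limma adjusted p = 0.681), with -1.05 to -0.80 over the alternatives. Ndufa1 differed by -0.76, Ndufs4 by -0.71, Ndufv2 by -0.66 and Ndufs1 by -0.64, of which Ndufv2 was at -0.39 without triceps. Markers of other cells moved with this comparison too. Of 10 endothelial markers 10 were negative, with a median of -0.64 and 4 at an unadjusted p under 0.05 in limma. Of 8 myeloid markers 0 were negative, with a median of 0.78 and 4 at that p. Fat cell markers moved chiefly through trapezius. White adipocyte markers had a mean level of 7.53 in trapezius against 4.58 to 5.68 on the other arrays, with a median difference of 1.61, 0 of 7 negative and 4 at an unadjusted p under 0.05. Among 5 brown adipocyte markers, with a median difference of 0.64 and 1 of 5 negative (Cox7a1, which muscle also expresses), Ucp1 was at 9.37 in trapezius, 5.10 in supraspinatus and 2.19 to 2.72 elsewhere. Cidea was at 9.22 in trapezius and 3.51 to 5.69 elsewhere. Without trapezius the median difference of the complex I genes was -0.38, with 31 of 33 negative. Ndufs5, on its dim probe set, was the 1 member with a positive difference, 0.17 with a 95% interval from -0.51 to 0.85. The bright probe set it shares with Ndufs5-ps was at 7.68 to 8.18 in shoulder and forelimb and 8.09 to 8.27 in head muscles. In all, 18 of 33 members had both head arrays above all 7 others, a layout of 6.28% of all genes.

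Hindlimb against shoulder and forelimb gave smaller values. The median difference was -0.16 (-0.01 over all genes and -0.05 over those above the median level), with 32 of 33 negative. It rested on single hindlimb arrays, at -0.067 with 22 of 33 negative without rectus femoris and -0.086 with 24 of 33 without gastrocnemius. It was -0.26 without tibialis anterior and -0.29 without soleus. No member passed at an adjusted p of 0.05 in limma (0.00451% of all genes did), and at an unadjusted p under 0.05 the count of lower members was 0 (1.81% of all genes), or 3 without soleus. For 0 members did each hindlimb array lie below each shoulder and forelimb array (2.3% of all genes). With the 6 arrays of wider range alone the median was 0.052 and 10 of 33 were negative, so the sign turned. Ndufs8 had the largest difference, -0.38 with a 95% interval from -0.83 to 0.07, followed by Ndufa3 (-0.36), Ndufs5 (-0.32), Ndufb9 (-0.29) and Ndufa4 (-0.27). In the 6 arrays of wider range these values were -0.12 for Ndufs8, 0.051 for Ndufa3, -0.40 for Ndufs5, 0.11 for Ndufb9 and -0.069 for Ndufa4. Ndufa4l2 was the 1 member with a positive value, 0.10 with an interval from -0.39 to 0.60, and was -0.13 without trapezius.

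Soleus, the slow muscle of the set, was not above the other arrays of wider range as a rule, and these include both head arrays. Its level exceeded the mean of the 5 others for 19 of 33 members, by a median of 0.02. Ndufa4l2 (0.53), Ndufb3 (0.39), Ndufv3 (0.33) and Ndufa8 (0.32) were the 4 members with their highest value of all arrays in soleus. Ndufa1 (-0.47) and Ndufa5 (-0.43) lay furthest below. Ppargc1a, the coactivator known to drive mitochondrial genes, was at 8.92 in soleus and between 6.18 and 8.02 elsewhere. The member median in soleus (0.19) lay below both head arrays but above supraspinatus (0.15), tibialis anterior (0.06) and trapezius (0.06). Between the head muscles, digastric exceeded masseter for 23 of 33 members, by a median of 0.10. With 1 array for each muscle these differences have no replicate check.

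The genes around the family were read from lists. The 7 subunits encoded in mitochondrial DNA had a smaller swing, with a spread of the list median of 0.30 over the 9 arrays, from -0.17 to 0.13, and a hindlimb against head median of -0.12. ND3 differed most among them (-0.67), and ND6 was positive (0.24). Their mean level was 12.16 to 12.50, near the highest value of each array (13.25 to 13.49), where differences can be compressed. ND6 lay lower than that mean, at 10.33 to 10.92. Ndufab1, the acyl carrier subunit that the rule leaves out, differed by -0.62 between hindlimb and head. The 18 assembly factors, which build the complex and are not part of it, had a median of -0.40 with 18 of 18 negative and 7 at an unadjusted p under 0.05, 0 of them past the adjusted threshold. Ndufaf4 (-1.14) and Tmem126b (-1.10) led, and Dmac1 was at -0.01.

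Other respiratory chain genes ran alongside. For 38 genes of complexes II to V the hindlimb against head median was -0.54, with 38 of 38 negative, and for 10 citrate cycle genes it was -0.47. Their list medians correlated with the member median at 0.99 and 0.98 over the 9 arrays, which share all processing. The pattern is therefore not called particular to complex I. Of 10 regulators of mitochondrial genes, 9 had a negative difference, with a median of -0.15. Of 7 muscle fibre genes 4 had a negative difference, with a median of -0.29, and their list median correlated with the member median at 0.80. Markers of other cells were uneven between the regions as well. For 9 of 10 endothelial markers the difference was negative, and their mean level was 6.51 to 6.74 in head, 5.92 to 6.14 in shoulder and forelimb and 5.69 to 6.68 in hindlimb muscles, highest in the hindlimb in soleus. Of 6 salivary gland markers 4 had a negative difference. Their mean level was 3.24 to 3.89 in the head against 2.59 to 2.86 elsewhere, which a few of them carried. Bpifa2 had levels of 5.16 in digastric and 3.74 in masseter, and 2.24 to 2.99 elsewhere, while Klk1 was at 7.28 in masseter but 0.91 in digastric, its lowest value. Of 8 tendon markers 2 had a negative difference, with a mean level of 4.69 to 6.65 in head and 6.08 to 7.09 in hindlimb muscles, and 8 of 8 myeloid markers had a positive difference of hindlimb from head. The part of these cells in the complex I differences was not tested, and in whole muscle fewer cells of a type and less RNA per cell cannot be told apart.

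**Figure D4:**
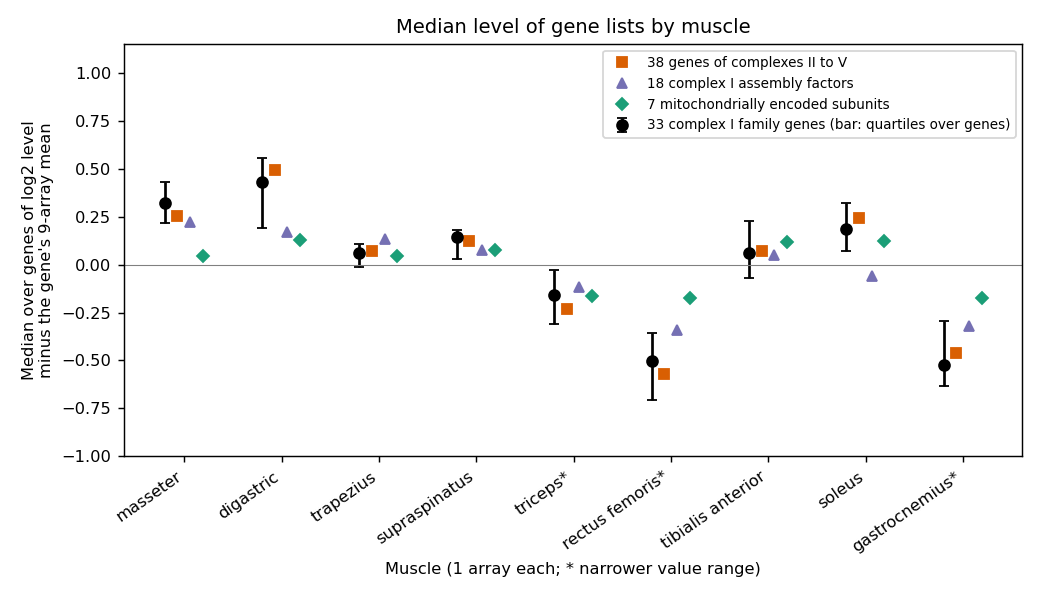
Points give, for each array, the median over the genes of a list of the log2 level minus the gene's own mean over the 9 arrays, with bars from the lower to the upper quartile of the 33 complex I genes. The family (black) runs from 0.43 in digastric to -0.53 in gastrocnemius, and complexes II to V (orange) from 0.49 in digastric to -0.57 in rectus femoris. The mitochondrially encoded subunits (green) stay between -0.17 and 0.13.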

How the data were processed

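Levels of 41345 probe sets were taken from 9 whole-transcript arrays. The authors deposited log2 values made with GCRMA, per the submitters' processing notes, without a version, and that they are log2 follows from their range. GCRMA corrects for background and normalizes between arrays. Detection calls were not used here. Genes were named from the array's gene table, with symbols updated to GRCm38.p6, and the brightest single-gene probe set stood for each of 22180 genes.

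A mean for each region was fitted to all 9 arrays with limma 3.58.1 (R 4.3.3), with p-values adjusted by Benjamini-Hochberg over all genes and a threshold of 0.05. A member counted as leaving the common course where its Pearson correlation with the median of the other members' levels as deposited was under 0.5. The fit was tested on simulated data. The members, the lists and the named genes (values by array for the 3 members with the largest range, the 3 with the smallest, the 5 with the largest difference in each comparison and those leaving the course, and the 5 genes closest in course) were chosen with earlier results of these data known. The 3 comparisons share arrays. The number of arrays limits the precision. Alternatives were scaling, probe set choice, a filter on dim genes, the variance model, the grouping, the value range of the arrays and each array left out. Exact permutation tests of the 2 members leaving the course, two-sided, cannot go below p = 0.133, 0.0571 and 0.2, and gave 0.4 to 0.8. A comparison of proteins was not made here.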

Additional observations from a re-analysis of the deposited data

Results flagged for a closer look

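In a screen of the 4 hindlimb arrays for 33 members and their median, 1 result stood out. Ndufb11, a subunit of the distal membrane arm, was at 4.98 in gastrocnemius against 5.29 to 5.35 in the other hindlimb arrays. The gap was 0.848 of the whole range, above Dixon's critical value for 4 samples. Chance flags about 1 in 20 groups; 34 results were screened.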

How the results depend on the processing

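No member passed the limma threshold under any of 54 alternative settings over the 3 comparisons. The hindlimb against head median of -0.57 moved to -0.27 with the value range as a term and to -0.18 with only the 6 arrays of wider range, and stayed negative under all 18. The shoulder and forelimb against head median of -0.35 was -0.18 with the value range as a term. The hindlimb against shoulder and forelimb median turned to 0.052 with only the 6 arrays of wider range. The cause was not tested. The number of members leaving the common course was 2, but 4 with Spearman correlation, 9 after quantile normalization, 11 with only the 6 arrays of wider range, and 2 to 6 with 1 array left out (6 without rectus femoris, 4 without masseter or gastrocnemius). Ndufa4l2 and Ndufs5 were among them each time, also with each gene centred first, an alternative chosen after seeing the data.

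Signs of small differences turned in 16 of 357 checks of named members. For hindlimb against head, Ndufa4l2 was 0.12 after quantile normalization, 0.17 with trapezius counted with the head muscles, 0.14 with the 6 arrays of wider range and -0.16 to 0.038 with 1 array left out, and Ndufs5 -0.46 to 0.15. For hindlimb against shoulder and forelimb, Ndufa3 was 0.051 and Ndufb9 0.11 with the 6 arrays, and Ndufa4l2 was -0.13 with trapezius moved and -0.13 to 0.31 with 1 array left out. For shoulder and forelimb against head, Ndufa4l2 was 0.31 with trapezius moved and -0.34 to 0.10 with 1 left out, and Ndufs5 -0.14 to 0.47. Ndufs5 is limited by its signal near background, and the filter on dim genes leaves it without a value. Over all genes, the 2 calls of hindlimb against head became 19 without soleus, 4 without digastric and 0 without masseter, and the 0 calls of shoulder and forelimb against head became 4 without digastric. No paired analysis was possible because the labels do not say which muscles came from the same animal. The planned protein comparison was not run.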
